A study of Mus musculus with 4 samples.

Results

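The reproductive homeobox (Rhox) genes form a single cluster on the mouse X chromosome, and they were described here in embryonic stem cells that lack the miR-290-295 microRNA cluster. Members were the rows of the deposited count table whose GENCODE symbol begins with Rhox and whose counts summed to at least 20 over the 4 libraries. Of 55421 identifiers in the table, 42 were Rhox genes or pseudogenes, and 7 of these met the rule: Rhox1, Rhox5, Rhox6, Rhox7-ps2, Rhox9, Rhox10 and Rhox13. The last member inside the limit was Rhox7-ps2 with 48 summed counts, and the first row outside it was Rhox8 with 7. The family was chosen by the measured KO over WT fold changes of Rhox6 and Rhox9 in these same libraries, so the change of those 2 genes is given as a description with no test. The study measured 2 cultures of miR-290-295 knockout (KO) and 2 of wild-type (WT) E14 cells, a male mouse embryonic stem cell line from blastocysts of a 129/Ola background. All 4 were grown on gelatin in medium with serum and leukaemia inhibitory factor (LIF), which keeps the cells undifferentiated. PolyA RNA was read as tags near the 3' end of each transcript (QuantSeq FWD), so a count reflects transcripts rather than transcript length. The labels call the libraries biological duplicates but do not say whether the KO cultures came from 1 clone, so p-values measure only the spread between these libraries.

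Rhox genes encode homeodomain transcription factors of the PRD class and are known mainly from the testis, epididymis, ovary and placenta. They lie in the order of 3 subclusters named alpha, beta and gamma, and several of them, Rhox5 above all, are known to be held silent by DNA methylation in most adult tissues. The miR-290-295 cluster supplies a large part of all microRNA in these cells. A microRNA lowers its targets mainly by pairing of its seed, bases 2 to 8, with a complementary site in the 3' untranslated region (UTR) of an mRNA.

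The mature microRNAs miR-291a-3p, miR-294-3p and miR-295-3p of the deleted cluster share 1 seed and are shown because the KO cells lack them, with the seed in capitals (5' to 3', RefSeq, GRCm38.p6, plus strand).
miR-291a-3p, chr7:3218968-3218989: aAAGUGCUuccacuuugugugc
miR-294-3p, chr7:3220691-3220712: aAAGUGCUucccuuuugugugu
miR-295-3p, chr7:3220815-3220837: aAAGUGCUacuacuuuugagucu
The complement of this seed, AGCACTT, was looked for on the sense strand of the annotated 3' UTRs of the 6 members that have one. It was found once each in 3 of them, Rhox1 at base 173 of a 193-base UTR, Rhox6 at base 13 of 138, and Rhox9 at base 13 of 107. A second annotated Rhox9 transcript has a 3' UTR of 1851 bases, with the same match at base 1757. Rhox7a and Rhox7b, at 0 counts, hold the letters once each as well. The 30 bases around each match are given with AGCACTT in capitals.
Rhox1: catatcccctcAGCACTTgtgctttcaata
Rhox6: gattttggagcAGCACTTgagtgccagccc
Rhox9: gattttggagcAGCACTTgagtgcctcccc
The 3' UTRs of Rhox5 (112 bases), Rhox10 (50 bases) and Rhox13 (106 bases) did not hold these letters. Over all 21173 genes with an annotated 3' UTR, AGCACTT occurred in 15.3%, and among the 2097 genes whose longest 3' UTR has 50 to 193 bases, a range that leaves out the longer Rhox9 form, it occurred in 1.14% (24 genes). The Rhox6 3' UTR and the shorter Rhox9 3' UTR are 93.5% identical over the 107 aligned bases, so their 2 matches are not independent. A match is a description of sequence, and pairing or repression at these sites was not measured.

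Rhox6 and Rhox9 are close paralogs, which matters for counting reads. Their coding sequences are 684 bases each and 90.6% identical, while the next most alike pair, Rhox6 and Rhox8, reached 64.3%. The last 150 coding bases of each, ending in the stop codon, are shown because 3' tags fall near this end, with the 21 bases that differ in capitals (GENCODE vM21 transcripts on GRCm38).
Rhox6, gene at chrX:37826910-37829857, plus strand: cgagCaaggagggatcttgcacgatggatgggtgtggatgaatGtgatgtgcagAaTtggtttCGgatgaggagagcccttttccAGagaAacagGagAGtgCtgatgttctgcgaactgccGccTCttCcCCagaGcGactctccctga
Rhox9, gene at chrX:37899097-37901770, minus strand: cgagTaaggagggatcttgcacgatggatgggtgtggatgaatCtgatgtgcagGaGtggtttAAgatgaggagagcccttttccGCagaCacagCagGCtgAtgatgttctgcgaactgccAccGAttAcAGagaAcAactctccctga
The longest run without a difference between the last 300 bases of Rhox6 and the Rhox9 transcripts was 38 bases. No 50-base window in the last 300 bases of Rhox6, Rhox9, Rhox5, Rhox1, Rhox10 or Rhox13 occurred in another Rhox transcript. Rhox7-ps2 was the exception, with 47.4% of its 50-base windows found in other Rhox transcripts, mostly Rhox7b. Nothing in the sources used here gives the read length or how reads that map to several places were treated. None of the 7 members overlapped another annotated gene.

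The libraries held 9925557 to 12726123 counts, and levels below are CPM, counts per 1000000 library counts, on library sizes scaled by the TMM method. The 7 annotated microRNA genes on the plus strand of the deleted locus had 0 counts in both KO libraries, and 88 and 39 in the WT libraries. The 8 embryonic stem cell markers listed, Pou5f1, Sox2 and Nanog among them, were all present and summed to 3409 and 3431 CPM in KO and 3173 and 3485 CPM in WT, so the groups overlapped. Of the 8, 0 rose and 1 fell, Klf4, a pluripotency factor, at 122 and 167 CPM in KO and 357 and 512 CPM in WT (log2 fold change -1.59, SE 0.21, adjusted p = 0.00235 in edgeR). Sox2, Nanog and Dppa5a were higher in both KO libraries than in both WT libraries, without a call. Their log2 fold changes were 0.44, 0.31 and 0.50, and the median of the 8 markers was 0.12. Over all 14427 genes tested with edgeR's quasi-likelihood F test and Benjamini-Hochberg adjustment, 1071 (7.42%) were higher and 715 (4.96%) lower in KO at an adjusted p of 0.05.

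The beta subcluster held the Rhox genes with most reads. Rhox6 (ENSMUSG00000006200), a homeobox gene known from the placenta and germ cells, stood at 174 and 76.4 CPM in the KO libraries and at 5.01 and 2.49 CPM in the WT libraries. Both KO values lay far above both WT values, although the first KO library was well above the second. The means were 125 ± 69.0 CPM in KO and 3.75 ± 1.78 CPM in WT (SD, n = 2 each), a log2 fold change of 5.04 (SE 0.45). Leaving out 1 library at a time moved the fold from 20.2 without KO library 1 to 50.1 without WT library 1.

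Rhox9 (ENSMUSG00000068048), the close paralog of Rhox6 and likewise known from the placenta and gonads, followed the same order of libraries. Its levels were 118 and 58.0 CPM in KO and 3.34 and 0.895 CPM in WT, so again the groups did not overlap. The mean was 88.1 ± 42.6 CPM in KO and 2.12 ± 1.73 CPM in WT (SD, n = 2 each), a log2 fold change of 5.33 (SE 0.51). The second WT library rested on only 9 counts, and without the other WT library the fold was 97.2, against 26.4 without WT library 2. In bulk RNA, more cells with these transcripts and more transcripts per cell cannot be told apart.

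**Figure D1:**
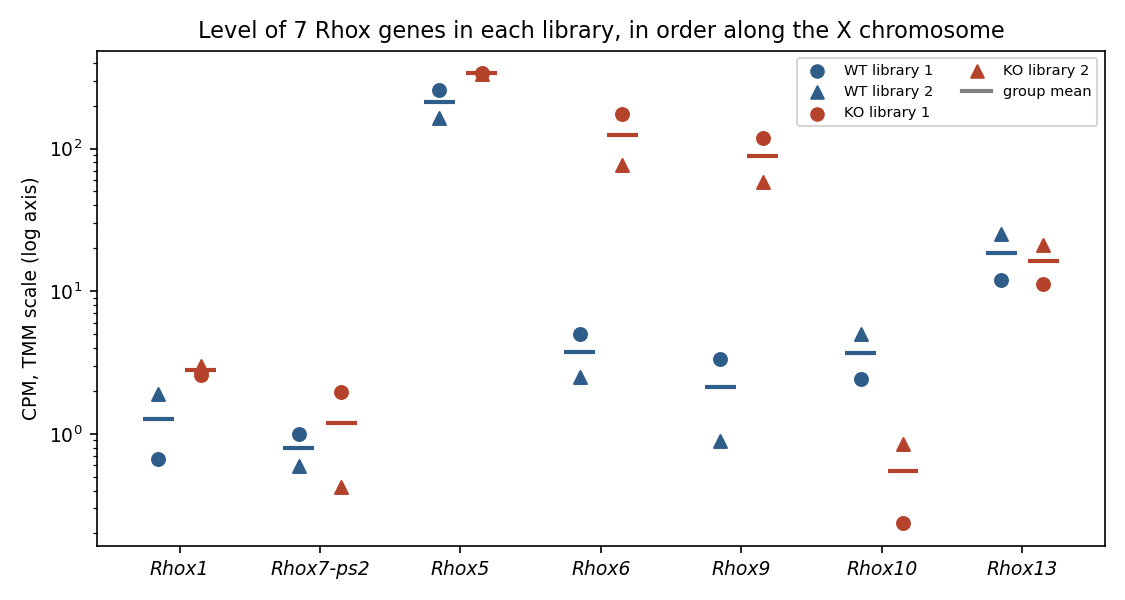
Level of each of the 7 Rhox genes in every library, as CPM on a log axis, with KO and WT libraries as separate points and the group mean as a line. Rhox6 and Rhox9 stand apart between the groups (125 against 3.75 CPM and 88.1 against 2.12 CPM on average), Rhox10 goes the other way, and Rhox13 and Rhox7-ps2 overlap.

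The ratio of Rhox6 to Rhox9 counts was alike in both KO libraries, at 1.47 (95% exact interval 1.38 to 1.57) and 1.32 (1.19 to 1.46). In WT it was 1.50 (0.989 to 2.30) and 2.78 (1.25 to 6.76). These intervals cover counting error only, and that of the first KO library lay inside the much wider one of the first WT library. At the depth of the WT libraries, a shift in the balance of the 2 paralogs between the groups was not detectable.

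Rhox5 (ENSMUSG00000095180), the founding member of the family, also known as Pem and regulated by androgen in Sertoli cells, had the most reads of the cluster. It lies at chrX:37804842-37808876 on the plus strand, 18.0 kb before Rhox6. Its levels were 337 and 335 CPM in KO and 259 and 164 CPM in WT, so both KO values exceeded both WT values while the WT pair spread widely. The log2 fold change was 0.67 (SE 0.20), with means of 336 ± 1.33 and 211 ± 67.6 CPM (SD, n = 2 each) and an adjusted p of 0.0625 in edgeR, which missed the threshold. The call depended on the setting: DESeq2 gave an adjusted p of 0.03, edgeR without the low-count filter 0.000739, and edgeR without WT library 1 a log2 fold change of 1.04 with 0.00051. Without WT library 2 the log2 fold change was 0.38, with an adjusted p of 0.105. Beside Rhox5 at a log2 fold change of 0.67, Rhox6 and Rhox9 stood at 5.04 and 5.33, and the difference between these genes was not tested.

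Rhox8, a beta gene known from Sertoli cells of the testis, was just detected. It had 5 and 2 counts in the KO libraries and 0 and 0 in the WT libraries. Set against a floor of 3 counts over the WT group, the KO counts as read stood 2.10-fold higher. That figure leaves out counting error in KO, so it is not a minimum, and the gene was too low to be tested. The beta genes Rhox7a and Rhox7b had 0 counts in every library.

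In the gamma subcluster, Rhox10 was lower in KO and Rhox13 overlapped between the groups. Rhox10 (ENSMUSG00000053909, chrX:38066475-38071691, plus strand), a germ cell gene with a known part in forming spermatogonial stem cells, had 3 and 10 counts in KO and 29 and 50 in WT. That is 0.236 and 0.853 CPM against 2.42 and 4.97 CPM, with no overlap and KO on the low side. The means were 0.545 ± 0.436 and 3.70 ± 1.81 CPM (SD, n = 2 each), and the gene fell by 2.75 on the log2 scale (SE 0.70, adjusted p = 0.0337 in edgeR). Both WT libraries and KO library 2 reached the minimum of the low-count filter, and the WT pair alone would have passed it. Leaving out KO library 1 ended the call (log2 fold change -2.09, adjusted p = 0.151), and so did leaving out WT library 2 (-2.15, adjusted p = 0.104).

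Rhox13 (ENSMUSG00000050197, chrX:38121219-38129967, plus strand), a germ cell Rhox gene of the testis, lies 49.5 kb beyond Rhox10. It stood at 11.2 and 21.2 CPM in KO and 11.9 and 25.1 CPM in WT, so the 2 groups overlapped nearly completely. Its log2 fold change was -0.19 (SE 0.39, adjusted p = 0.799 in edgeR), and its sign turned when KO library 1 (0.20) or WT library 2 (0.43) was dropped. The spread lay within the groups, since the second library held 1.89 times the level of the first in KO and 2.10 times in WT. Rhox12, the third gamma gene with any reads, had 2 counts in all, both in KO library 1.

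Few reads were assigned to the alpha subcluster in either group. Rhox1 (ENSMUSG00000071773, chrX:37213804-37222258, minus strand) was its 1 member past the limit, with 33 and 35 counts in KO and 8 and 19 in WT. At 2.60 and 2.99 CPM both KO libraries were above the WT libraries at 0.668 and 1.89 CPM, but the log2 fold change of 1.14 (SE 0.59) had an adjusted p of 0.243 in edgeR. It ran from 0.55 without WT library 1 to 2.04 without WT library 2. Over the 23 protein-coding Rhox2, Rhox3 and Rhox4 rows, copies that arose by repeated duplication, 5 counts were found in all, 1 for Rhox2a, 1 for Rhox2d, 2 for Rhox2g and 1 for Rhox2h. Of the 28 Rhox rows at 0, 23 share part of the last 300 bases of their transcripts with another Rhox gene, and a median of 69.2% of the 75-base windows of those 23 recurred elsewhere in the family. A count of 0 in such rows can therefore not be read as absence. The limit that a count of 0 allows, 3 counts, corresponds to 0.122 CPM over the KO group and 0.136 CPM over the WT group.

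The pseudogenes added little. Rhox7-ps2 (ENSMUSG00000106388, chrX:37676370-37679555, minus strand) had 25 and 5 counts in KO and 12 and 6 in WT, with overlapping groups and a log2 fold change of 0.57 (SE 0.77, adjusted p = 0.678 in edgeR). Leaving out KO library 1 turned its sign, to -0.89. Rhox7-ps1 had 2 counts in KO library 2 and 2 in WT library 2.

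All 7 members passed the low-count filter. Of these, 2 were called higher in KO, the genes that chose the family, beside 7.42% of all genes tested, and nothing is read from that. Rhox10 was the 1 member called lower, beside 4.96% of all genes. The other 4 did not pass the threshold. Both KO libraries lay above both WT libraries for 4 of 7 members, Rhox1, Rhox5, Rhox6 and Rhox9, beside 29.4% of all genes, and below them for 1, Rhox10, beside 28.5%. The median log2 fold change of the 7 was 0.67, against -0.01 over all genes tested. This median and the 4 of 7 members above WT include Rhox6 and Rhox9, which chose the family, so nothing is read from them either.

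A sum over all 42 rows does not depend on how counted reads are divided between paralogs. Any reads dropped for mapping to several places would still be missing from it. This summed Rhox level was 646 and 496 CPM in KO and 284 and 200 CPM in WT, a log2 fold change of the means of 1.24. Most of that difference came from the pair that chose the family. Without Rhox6 and Rhox9 the sums were 354, 361, 275 and 197 CPM in the same order, which is 1.52-fold higher in KO and almost wholly Rhox5. Without Rhox5 as well, the sums were 16.5 and 25.8 CPM in KO and 16.2 and 33.0 CPM in WT, and the groups overlapped. With 2 libraries in each group an exact permutation test cannot give a p under 0.3333, so these sums are described by their ranges.

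The make-up of the family's reads changed with Rhox6 and Rhox9. Rhox5 supplied 91.4% (95% exact binomial interval 90.4 to 92.3) and 81.8% (80.0 to 83.5) of all Rhox reads in the WT libraries, and 52.2% (51.1 to 53.3) and 67.7% (66.5 to 68.9) in the KO libraries. Its share was thus lower in both KO libraries while its own level was not. This lower share follows from the rise of Rhox6 and Rhox9, which chose the family, so nothing is read from it. The intervals cover counting error only. Rhox6 supplied 26.9% and 15.4% of the reads in KO against 1.77% and 1.24% in WT, and Rhox9 18.3% and 11.7% against 1.18% and 0.448%. Rhox13 supplied 1.73% and 4.27% in KO and 4.21% and 12.5% in WT. In each KO library the order of read numbers was Rhox5, Rhox6, Rhox9, Rhox13, while in each WT library Rhox13 came second after Rhox5.

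**Figure D2:**
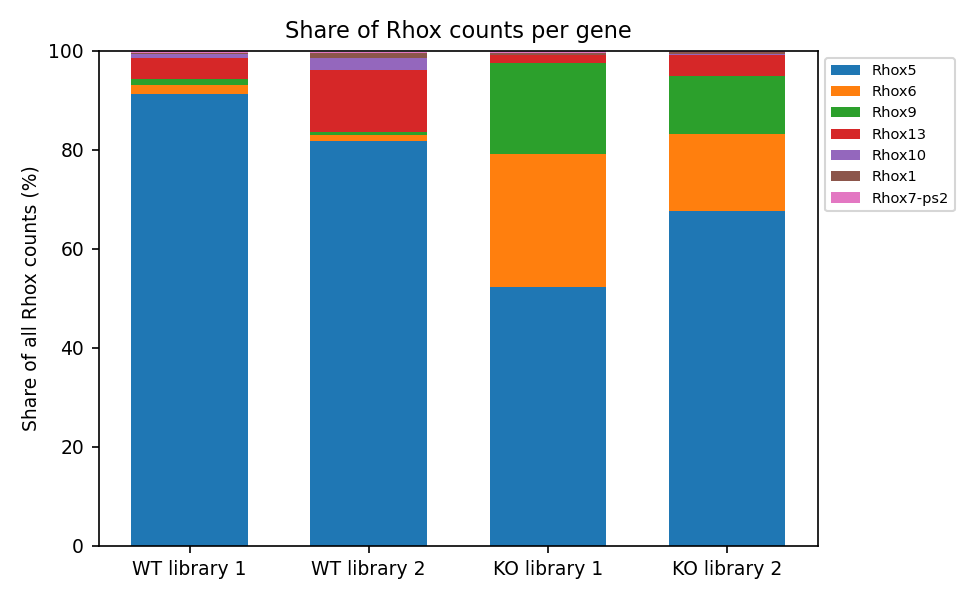
Share of all Rhox reads taken by each Rhox gene in each library, in percent, as stacked bars that start at 0. Rhox5 takes 81.8% and 91.4% in the WT libraries and 52.2% and 67.7% in the KO libraries, where Rhox6 and Rhox9 take most of the rest.

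Members also differed between libraries of the same group, and not in the same direction. Library 1 exceeded library 2 for Rhox6, by 2.28 times in KO (95% exact interval 2.11 to 2.46) and 2.01 times in WT (1.24 to 3.35). Rhox9 did likewise, by 2.04 times in KO (1.86 to 2.23) and 3.73 times in WT (1.78 to 8.74). Rhox13 went the other way in both groups, at 0.528 times (0.427 to 0.652) and 0.476 times (0.385 to 0.587). Rhox5 was level in KO, at 1.01 times (0.963 to 1.05), and higher in the first WT library, at 1.58 times (1.49 to 1.68). The intervals hold counting error alone. Apart from Rhox5 in KO, where the interval included 1, these gaps exceed what the depth gives. The sample titles do not say whether libraries with the same number were paired. Over all 14427 genes the deviations of KO and WT libraries with the same number had a correlation of -0.0703. With 2 libraries in each group that value cannot decide it.

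**Figure D3:**
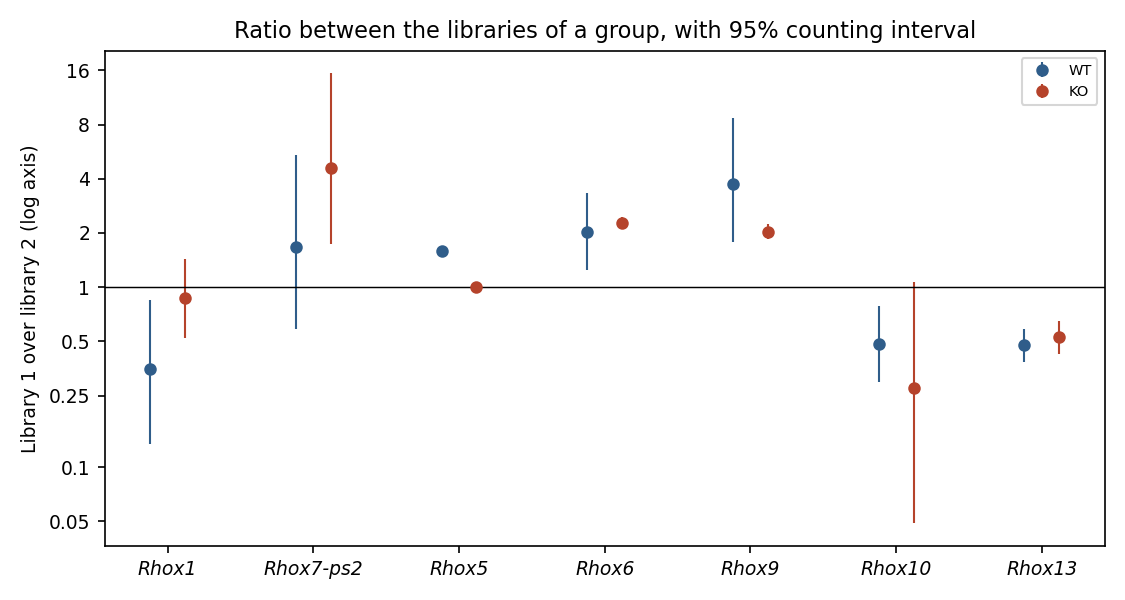
Ratio of library 1 to library 2 within KO and within WT for each Rhox gene, on a log axis with 95% exact intervals for counting error. Rhox6 and Rhox9 lie above 1 in both groups and Rhox13 below 1 in both, while Rhox5 is at 1.01 in KO and 1.58 in WT.

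The change of Rhox6 and Rhox9 was set beside the genes around them. The Rhox rows span chrX:37213804-38306028, and 22 tested genes that are not Rhox lie inside that span or within 1 Mb of it. Of these, 3 (13.6%) were higher and 2 (9.09%) lower, with a median log2 fold change of 0.02, beside 7.02% higher and 3.72% lower of all 484 tested X-linked genes outside the family, these 22 included. The 3 that rose were Lamp2, which encodes a lysosomal membrane protein (log2 fold change 1.52, SE 0.24, adjusted p = 0.005 in edgeR), Pgrmc1, which encodes a haem-binding membrane protein (1.14, SE 0.17, adjusted p = 0.0043), and Zbtb33, which encodes the methyl-DNA-binding protein Kaiso (0.87, SE 0.23, adjusted p = 0.039). Zbtb33 was the only tested gene inside the span that is not Rhox, and its levels averaged 25.2 ± 1.22 CPM in KO and 13.7 ± 2.09 CPM in WT (SD, n = 2 each). The 2 that fell were Cul4b, a cullin of a ubiquitin ligase (-0.79, SE 0.16, adjusted p = 0.015), and Sept6, a septin of the cytoskeleton (-0.81, SE 0.22, adjusted p = 0.042). Gm9, 2.76 kb before the span, had the largest fold change of the 22 but was not called (2.15, SE 0.69, adjusted p = 0.0717). It stood at 8.11 and 3.16 CPM in KO and 0.501 and 2.09 CPM in WT. The calls of Zbtb33, Cul4b and Sept6 were lost with fewer libraries, while their directions held. Leaving out KO library 1, KO library 2 or WT library 2 took Zbtb33 to log2 fold changes of 0.83, 0.93 and 0.73 and adjusted p of 0.215, 0.147 and 0.0558. Cul4b lost its call without KO library 1 (-0.78, adjusted p = 0.103) or 2 (-0.79, adjusted p = 0.0958), and so did Sept6 (-0.73, adjusted p = 0.286, and -0.89, adjusted p = 0.179).

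**Figure D4:**
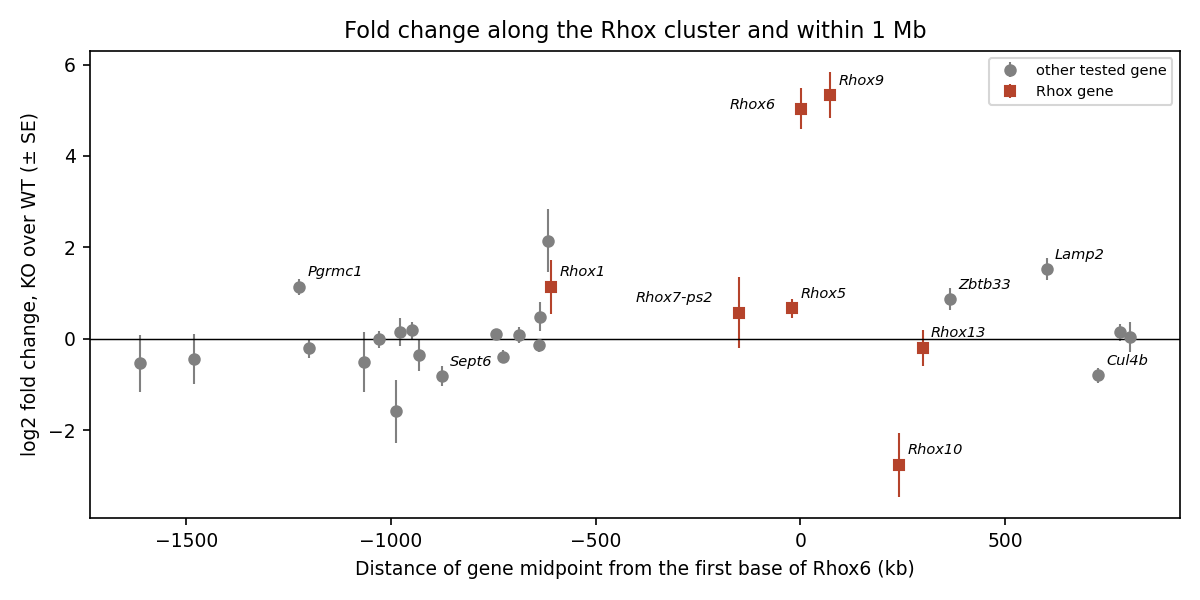
Log2 fold change of KO over WT with its SE for the 7 Rhox genes (squares) and the 22 other tested genes within 1 Mb (circles), by distance in kb from the first base of Rhox6. Rhox6 and Rhox9 stand at 5.04 and 5.33, and the called neighbours lie between -0.81 and 1.52. Gm9, a neighbour that was not called, stands at 2.15.

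Regulators that act on Rhox genes in other settings were read from fixed lists, described by counts beside the 7.42% and 4.96% of all genes. In the DNA methylation machinery, 0 of 9 genes rose and 2 fell, with a median log2 fold change of -0.25. With KO library 1 or KO library 2 dropped 1 fell, and with WT library 2 dropped 4 fell. Dnmt3l, the cofactor of the de novo methyltransferases, stood at 65.5 and 65.5 CPM in KO and 277 and 218 CPM in WT, and fell by 1.92 on the log2 scale (SE 0.17, adjusted p = 0.000385 in edgeR). Dnmt3b, a de novo methyltransferase, was at 75.8 and 63.7 CPM against 137 and 99.7 CPM, and fell by 0.76 (SE 0.19, adjusted p = 0.0348). For Dnmt3b the call ended when KO library 1, KO library 2 or WT library 1 was left out, with log2 fold changes of -0.89, -0.64 and -0.52 and adjusted p of 0.08, 0.237 and 0.068. Of the 7 genes not called, Dnmt1, Uhrf1 and Tet3 were higher in both KO libraries than in both WT libraries. Hells and Tet2 were lower in both, and Dnmt3a and Tet1 overlapped between the groups. No DNA methylation was measured, and the part of the listed genes in the Rhox values was not tested.

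Other repressor lists held no call in edgeR: 0 of 7 genes for H3K9 methylation and KAP1, 0 of 7 linker histones, and 0 of 8 genes of the germline repressor PRC1.6. At an unadjusted p of 0.05 they held 2, 1 and 1 genes, and DESeq2 called 0 in each. Without WT library 1 the linker histones held 1 higher and 2 lower calls, and without WT library 2 PRC1.6 held 1 lower. Their median log2 fold changes were -0.09, -0.18 and 0.10. Among 5 tested factors known to act on the Rhox5 promoter, the median log2 fold change was -0.13. Gabpa, Gabpb1, Sp1 and Sp3 were not called, with log2 fold changes of -0.25, -0.20, -0.13 and -0.12. Elf1, an ETS family activator, rose by 1.00 on the log2 scale (SE 0.23, adjusted p = 0.0215 in edgeR). It stood at 29.3 and 39.1 CPM in KO and 17.2 and 16.9 CPM in WT, and its call was lost without KO library 2 (0.79, adjusted p = 0.215).

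Germline genes did not move as 1 group. Of 15 tested genes that DNA methylation is known to silence, 0 rose and 6 fell, with a median log2 fold change of -0.95. Dazl, a germ cell RNA-binding protein, was at 15.3 and 15.9 CPM in KO and 38.6 and 69.7 CPM in WT, and fell by 1.79 (SE 0.28, adjusted p = 0.00497 in edgeR). Without KO library 1 the list held 1 lower call, and without KO library 2 it held 3. Of 10 primordial germ cell genes, 4 rose and 0 fell, with a median of 0.68. Of the 6 not called, Dnd1 and Dppa4 were lower in both KO libraries than in both WT libraries. Prdm14 and Kit were higher in both, and Dppa3 and Itgb3 overlapped between the groups. Prdm1, which encodes the regulator BLIMP1, stood at 65.4 and 46.4 CPM in KO and 8.60 and 15.8 CPM in WT, a log2 fold change of 2.20 (SE 0.31, adjusted p = 0.00275). Tfap2c, which encodes the factor AP-2 gamma of germ cells and trophoblast, stood at 380 and 231 CPM against 91.1 and 86.9 CPM, a log2 fold change of 1.78 (SE 0.22, adjusted p = 0.00178). In Prdm1, Tfap2c and Nanos3 (9.76 and 5.21 CPM in KO, 1.75 and 0.696 CPM in WT) the first KO library was the higher. In Dppa2, the fourth that rose, a factor of pluripotent and germ cells, the KO libraries were level at 167 and 169 CPM, against 124 and 91.1 CPM in WT (log2 fold change 0.64, SE 0.18, adjusted p = 0.0449). Without KO library 1 the list held 2 calls, with Nanos3 (log2 fold change 2.06, adjusted p = 0.0881) and Dppa2 (0.66, adjusted p = 0.172) lost. The Dppa2 call also ended when KO library 2 (0.64, adjusted p = 0.187) or WT library 2 (0.44, adjusted p = 0.0766) was dropped.

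Rhox6 and Rhox9 were also set beside the PRD class and the X chromosome. Among 9 tested PRD-class homeobox genes outside the Rhox cluster, 2 rose and 1 fell. Pax6, a regulator of eye and forebrain development, was at 16.0 and 16.5 CPM in KO and 0.417 and 0.497 CPM in WT (log2 fold change 5.12, SE 0.40, adjusted p = 0.000199 in edgeR), a change of the size of those of Rhox6 and Rhox9. Crxos fell by 3.30 (SE 0.71, adjusted p = 0.018), and its call was lost without WT library 2 (-1.95, adjusted p = 0.0615). Among 9 tested X-linked germline and placental genes outside the cluster, 0 rose and 1 fell, Usp26, a testis ubiquitin protease (-3.47, SE 0.76, adjusted p = 0.0198), and the median was -0.95. The log2 fold change of Usp26 ran from -2.44 without WT library 2 to -5.37 without KO library 2, and the list held 2 lower calls without KO library 1, WT library 1 or WT library 2.

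Markers of other cell types that express Rhox genes were read in the same libraries. Of 12 trophoblast markers, 7 were tested, 0 rose and Ascl2 fell (-1.71, SE 0.41, adjusted p = 0.0262 in edgeR), a call lost without KO library 1 (-1.56, adjusted p = 0.145) or 2 (-1.86, adjusted p = 0.0813). Their summed level was 20.5 to 22.4 CPM in KO and 20.4 to 28.0 CPM in WT, so the groups overlapped, and the placental spongiotrophoblast marker Tpbpa was at 0 in all 4 libraries. Krt7 went the other way, at 6.22 and 5.29 CPM in KO and 2.34 and 2.19 CPM in WT. It was not called (log2 fold change 1.34, SE 0.40, adjusted p = 0.0597 in edgeR). Plac1, too low to be tested, had 10 and 9 counts in KO and 0 and 0 in WT. The median log2 fold change of the 7 was -0.26. Of 8 Sertoli and Leydig cell markers, 3 were tested and Wt1, a gonadal transcription factor, rose from 1.09 and 0.398 CPM in WT to 4.17 and 8.11 CPM in KO (adjusted p = 0.0137). That call was lost without KO library 2 (log2 fold change 2.46, adjusted p = 0.0691). Their sum was 7.63 to 11.4 CPM in KO and 6.67 to 7.68 CPM in WT, and the defining genes Amh, Cyp17a1 and Insl3 were at 0. The other tested markers, Gata1 and Star, were lower in both KO libraries than in both WT libraries, without a call. Their log2 fold changes were -1.77 (adjusted p = 0.065 in edgeR) and -0.63 (adjusted p = 0.468), and the median of the 3 was -0.63.

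Primitive endoderm markers had the lowest median of the 14 lists. All 10 were tested, 0 rose and 7 fell, with a median log2 fold change of -3.01, and their summed level was 24.7 to 26.7 CPM in KO and 176 to 182 CPM in WT. Col4a1, a basement membrane collagen, was at 3.70 and 4.27 CPM in KO and 61.1 and 62.5 CPM in WT, and Gata6, which specifies this lineage, at 1.02 and 1.79 CPM against 16.1 and 12.2 CPM. Of 6 fibroblast or feeder markers, 4 were tested and 3 fell, with sums of 17.3 to 29.5 CPM in KO and 44.7 to 67.9 CPM in WT and with Col3a1 at 0. That list held 0 lower calls without KO library 1 and 1 without each of the other libraries. The WT libraries thus held more RNA of both lists, and the part of these cells in the Rhox values, the lower Rhox10 included, was not tested.

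The genes whose levels over the 4 libraries were most like those of each member were found among 10360 genes, by the distance of log2 CPM centred on each gene's mean. For Rhox6 the nearest gene of all was Rhox9, at a distance of 0.72, closer than the first non-Rhox gene, Gna14, a G protein subunit, at 0.95. Next came Inhbe (1.01), Bcl11a (1.12), Hhip (1.14) and Serpinf1 (1.15). Inhbe, Hhip and Serpinf1 were also among the 5 nearest non-Rhox genes of Rhox9, after Rhox6 itself at 0.72, with Lefty1, a Nodal antagonist, first of the non-Rhox genes at 1.15 and Parvg last at 1.46. Rhox5 was nearest to Nova1 at 0.07, followed by Slc35d1 at 0.08, Stk17b at 0.09, Rinl at 0.10 and AU020206 at 0.11. Rhox13 was nearest to Gpat2, a testis acyltransferase, at 0.07, followed by Acrbp (0.19), Sfrp1 (0.19), Ggact (0.20) and Nat9 (0.22). These distances rest on 4 libraries and describe likeness of level alone. They are not scaled to the size of a gene's change, so distances of different members are not compared. Rhox6 and Rhox9 were chosen by their rise in the same libraries, so their nearness to each other is partly set by that choice.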

How the data were processed

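PolyA RNA of 2 KO and 2 WT cultures was read with a 3' tag kit. The authors deposited raw counts per gene, with whole numbers for 55421 Ensembl identifiers. Reads were trimmed with Trim Galore and the build was GRCm38, per the submitters' processing notes. Nothing in the sources used here gives the aligner, counter, annotation, strand setting or use of multi-mapped reads. Of the identifiers, 55240 matched GENCODE M21, which gave symbols and coordinates.

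Counts of all genes were fitted with edgeR 4.0.16 in R 4.3.3 (TMM, filterByExpr, quasi-likelihood F test, no covariate, 14427 genes), with a threshold of 0.05 after Benjamini-Hochberg adjustment. The SE was obtained from the fold change and the F value. The script was tested on simulated counts. DESeq2 1.42.0, other scalings and filters, thinning, a replicate block and leaving out each library were alternatives. Intervals are 95% exact binomial. MicroRNAs came from RefSeq, and transcripts were compared in Python 3.11.15 with Biopython 1.88.

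The text names every member, called genes within 1 Mb, up to 4 genes per list by smallest p, and the 5 nearest genes by level with a mean of at least 5 CPM. Members, lists and rules were chosen with earlier results of these data known. The lists were written from general knowledge of the field. The values of 1 gene that the rule would name are not reported here.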

Additional observations from a re-analysis of the deposited data

How the results depend on the processing

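Rhox6 and Rhox9 were higher and Rhox10 lower in KO under every scaling, test and filter tried that kept the gene, and no gene called in the text changed sign under an alternative. Over all genes, edgeR called 1193 lower without a low-count filter, and 636 higher and 391 lower at a mean of at least 10 CPM. With the replicate number as a block, 638 were called higher and 370 lower. Leaving out 1 library at a time gave 556 to 1477 higher and 285 to 1011 lower, each time with a lone library assumed to vary like the other group. Rhox genes called lower numbered 0 at a mean of at least 10 CPM, where Rhox10 is not tested, and 0 to 1 when 1 library was left out, with 2 to 3 higher. Genes around the cluster called lower numbered 1 under the block and 0 to 3 when 1 library was left out. The summed Rhox level ranged from 1.01 to 1.51 on the log2 scale when 1 library was left out. The titles share the numbers 1 and 2 but do not say whether the cultures were paired. The correlation of deviations between KO and WT libraries of the same number was -0.0703, which cannot decide this with 2 libraries in each group. The block kept the Rhox calls at 2 higher and 1 lower. Rhox1, Rhox10 and Rhox7-ps2 have 48 to 95 counts in all, so their precision is limited by depth.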
